A study of Mus musculus with 4 samples.

Results

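Genes for calcium-gated and voltage-gated potassium channels, 9 in all, were followed through the cells of mouse popliteal vessels. They are the BK channel pair Kcnma1 and Kcnmb1, the Kv1 pore subunits Kcna1, Kcna2 and Kcna5, the Kv1 auxiliary subunit Kcnab1, the silent subunit Kcng1, the Kv7 subunit Kcnq5 and the Kv4 subunit Kcnd3. They were chosen by symbol, 9 of the 32286 genes listed, with earlier results of these data known. Every library came from adult mice that carried WT1GFPCre, which places an EGFP and Cre fusion at the Wt1 locus, together with Ai9-tdT, a Cre-dependent tdTomato reporter at Rosa26, and that received Evans blue dye in the footpad. The PLV libraries, replicates 1 and 2, held popliteal lymphatic vessels from separate pools of 2 mice, digested for 30 minutes with collagenase I, Dispase II, DNase and Liberase. One further library, called mixed, held popliteal lymphatic and blood vessels of 1 pool of 2 mice, digested for 60 minutes with collagenase I and Dispase II and stained with hashtag antibodies. Vessel, enzymes, digestion time, mice and run differ together between the PLV and mixed libraries and cannot be told apart, and the hashtags were not used to split the vessels.

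A BK channel opens when the membrane is depolarised and cytosolic calcium is high, and the outward potassium current then opposes contraction of smooth muscle. Its pore comes from Kcnma1, and Kcnmb1 encodes the beta subunit that is typical of smooth muscle and raises calcium sensitivity. Kv1 channels are tetramers of Kcna subunits that open on depolarisation, with cytoplasmic beta subunits such as Kcnab1, and in peripheral nerve Kcna1 and Kcna2 are best known from the axon next to the nodes of Ranvier. Kcng1 makes no channel of its own and alters Kv2 channels when it joins them.

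The files gave 9577642, 3390010 and 7770796 unique molecular identifiers (UMIs, counted RNA molecules) in 1909, 516 and 994 kept cells of the first PLV, the second PLV and the mixed library, and no kept barcode was shared. Cells were clustered without the 9 genes, and clusters were named by marker genes. Muscle-like cells, marked by Acta2 and Myh11, numbered 428, 111 and 334. They fell into kinds named by gene pairs taken from earlier results of these data: kind A (Ano1 and Hmcn2) with 140, 57 and 199 cells, kind B (Pln and Sorbs2) with 288, 54 and 61, and kind C (P2rx1 and Col12a1) with 74 cells of the mixed library. Acta2, a marker that named the class, stood at 11990 to 19530 CPM in every kind. CPM are a gene's counts scaled to a total of 1e+06 UMIs in the group of cells or droplets of that library. The pericyte-like class was small, at 39, 26 and 40 cells, and the Schwann-like class held 234, 53 and 38 cells. Intervals below are 95% exact Poisson intervals of CPM and cover counting error only.

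Both BK genes were transcripts of muscle-like cells in every library and of every muscle kind, and neither had a single UMI in pericyte-like, fibroblast-like, blood endothelial-like or Schwann-like cells. Kcnma1 (ENSMUSG00000063142, chr14:23289431-24014491, minus strand) was at 81.1 CPM (69.7 to 93.8) in muscle-like cells of PLV replicate 1, 91.8 (71.9 to 116) in PLV replicate 2 and 77.5 (67.1 to 89.0) in the mixed library. The mean was 83.5 ± 7.48 CPM (SD, n = 3 libraries), so the libraries lay close together. Against a floor of 3 counts over all cells of a class, pooled Kcnma1 was at least 119-fold higher in muscle-like than in fibroblast-like cells and at least 91.3-fold higher than in blood endothelial-like cells. The same bound was 20.3-fold against the smaller Schwann-like class. Kcnma1 passed edgeR's quasi-likelihood test against each of the 5 other classes, with Benjamini-Hochberg adjusted p from 3.42e-07 against blood endothelial-like to 0.000243 against pericyte-like cells. A gene at or near 0 UMIs in a class or kind enters a test only through the group where it is high and has to differ, so such p-values, here and below, are a description.

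Kcnmb1 (ENSMUSG00000020155, chr11:33963013-33973641, plus strand) was at 129 CPM (115 to 145), 116 (93.5 to 143) and 70.5 (60.6 to 81.5) in muscle-like cells, in the same order of libraries. The mixed library was the lowest, and its interval did not reach those of the PLV libraries. The pooled level was at least 147-fold above fibroblast-like and at least 113-fold above blood endothelial-like cells. The edgeR adjusted p was between 4.34e-07 and 0.000251 in the 5 class contrasts. With DESeq2 the fitted differences stayed positive and the Kcnmb1 call was lost in all 5, with adjusted p of 0.152 to 0.485, and against pericyte-like cells it was lost with the 9 genes in the clustering (edgeR adjusted p = 0.163). Kcnmb1 lies within Kcnip1 on the opposite strand.

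Among the 6 classes tested, the only BK counts outside muscle were in lymphatic endothelial-like cells of PLV replicate 1, with 4 Kcnma1 and 9 Kcnmb1 UMIs in 192 cells, and Kcng1 had 10 UMIs there. Acta2 stood at 447 CPM in that cluster, against 4.30 and 8.45 CPM in the lymphatic endothelial-like cells of the other libraries, where Kcnma1, Kcnmb1 and Kcng1 were all at 0 UMIs. The part of muscle RNA in those counts was not tested. Near-empty droplets of the mixed library, which hold free RNA, contained 9 Kcnma1 and 11 Kcnmb1 UMIs in 1000645, or 8.99 and 10.99 CPM.

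**Figure D1:**
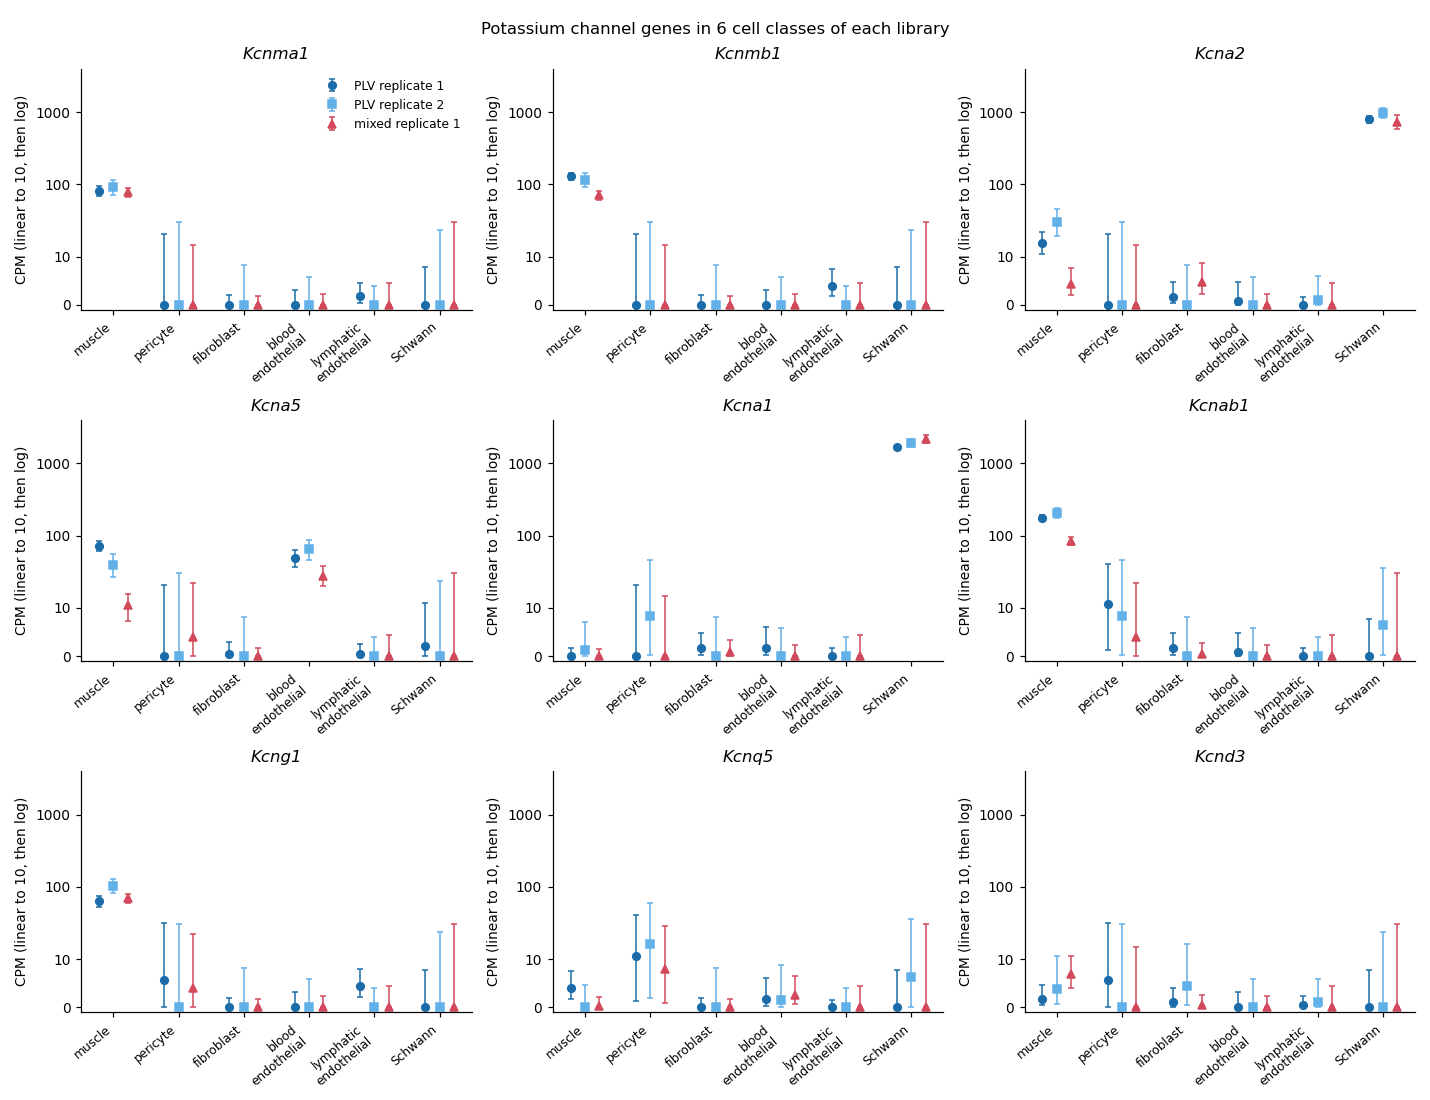
CPM of each potassium channel gene (vertical axis, linear to 10 and logarithmic above) in 6 cell classes of the 3 libraries, with 95% exact Poisson intervals as bars. Kcnma1 and Kcnmb1 stand between 70.5 and 129 CPM in muscle-like cells, while Kcna1 and Kcna2 peak in Schwann-like cells and Kcna5 is shared by muscle-like and blood endothelial-like cells.

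Between the muscle kinds, Kcnma1 was the higher in kind A. It was at 102 CPM (79.5 to 128), 127 (91.3 to 173) and 86.4 (71.3 to 104) in kind A, again in the order first PLV, second PLV and mixed library. In kind B it was at 71.4 (58.6 to 86.2), 67.1 (45.6 to 95.3) and 48.1 (29.8 to 73.5), below kind A in each library and without overlap between the groups. Kind B minus kind A came to a log2 difference of -0.58 for Kcnma1 (SE 0.19; edgeR, adjusted p = 0.028). That call ended in 10 of 12 alternatives (the 9 genes in the clustering and the mixed library left out gave the same fit and count as 2), among them leaving out PLV replicate 1 (adjusted p = 0.0761), PLV replicate 2 (0.152) or the mixed library (0.107), while the difference stayed negative at -0.79 to -0.36. Kcnmb1 was at 125, 90.0 and 65.2 CPM in kind A and at 131, 134 and 71.0 CPM in kind B, so its groups overlapped. Its difference of 0.34 (-0.04 to 0.73, edgeR adjusted p = 0.179) did not pass. Kind C of the mixed library held 65 UMIs of each BK gene, 78.7 CPM (60.7 to 100.3).

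The region upstream of Kcnmb1 is printed because it is the start of a gene read in all 3 muscle kinds, and that of Kcna5 because Kcna5 was read in 1 muscle kind and in endothelium; both genes have a single RefSeq start whose 250 upstream bases overlap no annotated exon. RefSeq starts were found for 7 of the 9 genes, with 10 upstream windows in all. Capitals mark the letters CANNTG, an E-box core that reads the same on both strands.
Kcnmb1, GRCm38.p6 chr11:33962763-33963012, plus strand: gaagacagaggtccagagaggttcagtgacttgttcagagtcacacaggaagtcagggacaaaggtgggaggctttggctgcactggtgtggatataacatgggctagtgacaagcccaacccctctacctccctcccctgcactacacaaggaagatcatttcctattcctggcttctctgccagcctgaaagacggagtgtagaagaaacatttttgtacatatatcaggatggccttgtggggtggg
Kcna5, GRCm38.p6 chr6:126535556-126535805, minus strand: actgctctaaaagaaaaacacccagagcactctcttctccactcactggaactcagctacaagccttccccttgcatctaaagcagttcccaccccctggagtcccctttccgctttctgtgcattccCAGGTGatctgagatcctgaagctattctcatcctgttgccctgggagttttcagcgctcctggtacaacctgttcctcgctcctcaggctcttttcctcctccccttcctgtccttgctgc
CANNTG occurred 0 times upstream of Kcnmb1 and 1 time upstream of Kcna5, in 6 of the 10 windows of these genes, and in 66.2% of the 32851 mouse windows of the same length. The CArG box, the motif of serum response factor in smooth muscle genes, was in 0 of the 10 windows and in 1.47% of all windows, and TATAAA, the TATA box, in 0 of the 10 and 12.4% of all (both strands searched). G and C made up 50.8% of the Kcnmb1 and 53.2% of the Kcna5 window, near the median of 52.4% over all windows.

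Kcna5 split the muscle kinds and was shared with part of the blood endothelium. Kcna5 (ENSMUSG00000045534, chr6:126532551-126535412, minus strand), a Kv1 pore subunit known from vascular smooth muscle, was at 106 CPM (90.6 to 124) in kind B of PLV replicate 1, 67.1 (45.6 to 95.3) in PLV replicate 2 and 64.1 (42.6 to 92.7) in the mixed library. Kinds A and C held 0 UMIs of it. Pooled kind B was therefore at least 71.8-fold above kind A, against a floor of 3 counts over the kind. A Kcna5 UMI was seen in 37.5%, 40.7% and 32.8% of kind B cells at median depths of 4910, 8390 and 6785 UMIs, and in 0 of 140, 57 and 199 kind A cells at 4421, 5909 and 6356 UMIs. After thinning each cell to 1500 UMIs the kind B shares were 12.1%, 11.3% and 15%.

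In blood endothelial-like cells Kcna5 was at 48.5 CPM (36.7 to 62.8), 64.8 (46.5 to 87.9) and 27.9 (20.3 to 37.5). The values overlapped those of kind B, and the fitted difference of kind B minus blood endothelial-like cells was 0.90 (SE 0.26, edgeR adjusted p = 0.00764, in a contrast added after the data were seen in which 39.8% of genes passed). For muscle-like cells of all kinds the difference was -0.35 (-0.98 to 0.28, edgeR adjusted p = 0.387). Within the endothelium the counts followed the clusters. In PLV replicate 1 the cluster led by Gpihbp1 and Cd36, genes of capillary lipid uptake, held 56 UMIs in 121 cells, or 80.2 CPM, and the cluster led by the venular adhesion gene Selp held 1 UMI in 99 cells. In the mixed library the cluster led by Rbp7 and Cxcl12, with Gpihbp1 next, held 42 UMIs in 101 cells, the cluster led by Aqp1 and Ackr1 held 2 in 44 and the cluster led by Cytl1 and Vwf held 0 in 29. PLV replicate 2 had a single blood endothelial-like cluster with 41 UMIs in 61 cells. The clusters were set apart after the data were seen, so they are given without a test. Lymphatic endothelial-like cells held 1 Kcna5 UMI over the 3 libraries.

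**Figure D2:**
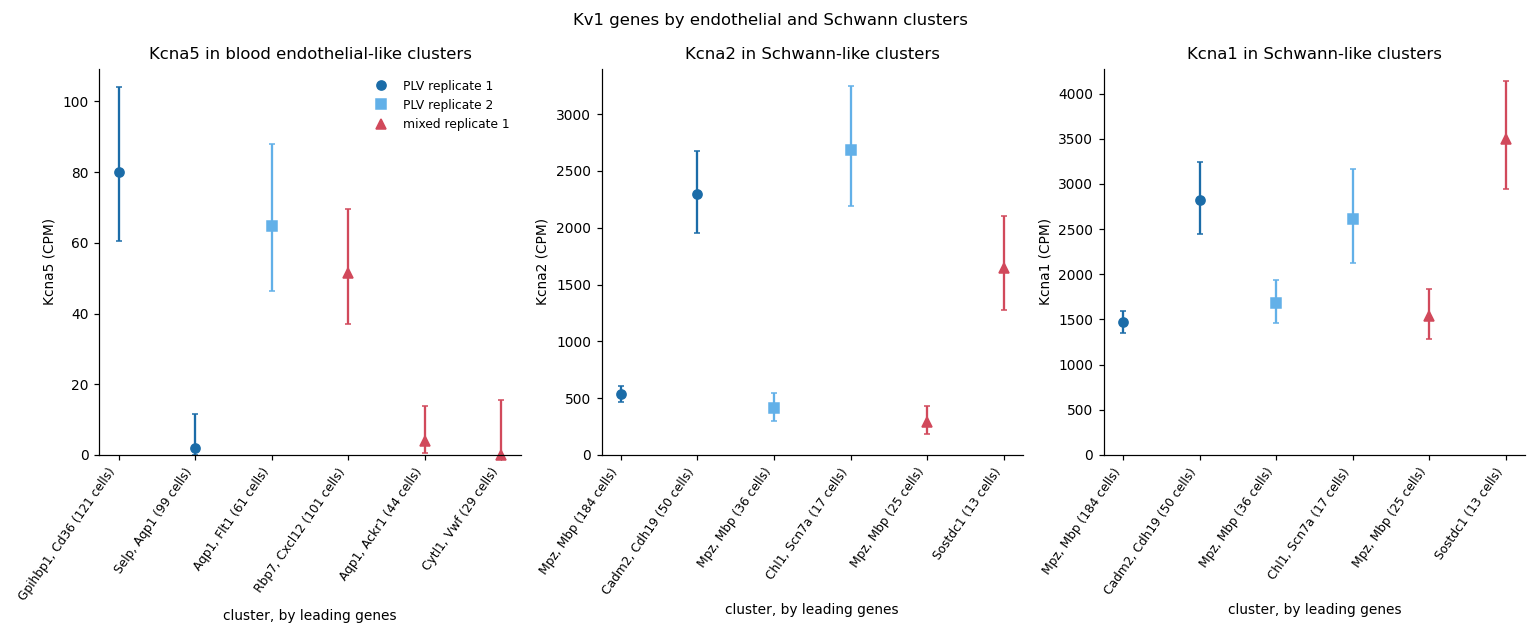
CPM of Kcna5 in each blood endothelial-like cluster and of Kcna2 and Kcna1 in each Schwann-like cluster (vertical axes, linear from 0), with 95% exact Poisson intervals as bars and clusters named by leading genes. Kcna5 is at 80.2 and 51.5 CPM in the clusters led by Gpihbp1 and by Rbp7 and at 64.8 CPM in the single cluster of PLV replicate 2, and at 3.84 CPM or less in those led by Selp, by Aqp1 with Ackr1 and by Cytl1.

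Kcna1 and Kcna2 had their highest levels in the Schwann-like class, and Kcna2 had a second, lower site in kind B muscle. Kcna1 (ENSMUSG00000047976, chr6:126640397-126646384, minus strand) was at 1670 CPM (1556 to 1791), 1914 (1703 to 2144) and 2177 (1922 to 2455) in Schwann-like cells, in the same library order. These cells held 790 of the 795, 299 of the 301 and 265 of the 267 Kcna1 UMIs of the kept cells. In muscle-like cells 1 UMI was counted in all. Kcna1 was lower in muscle-like than in Schwann-like cells (edgeR adjusted p = 4.01e-12), with a pooled ratio of Schwann-like to muscle-like cells of 10090 (1809 to 399000) that rests on that 1 UMI. A Kcna1 UMI was seen in 80.8%, 84.9% and 89.5% of Schwann-like cells at median depths of 1762, 3018 and 2598 UMIs, against 0 of 428, 1 of 111 and 0 of 334 muscle-like cells at greater depth.

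Kcna2 (ENSMUSG00000040724, chr3:107101146-107115005, plus strand) was at 795 CPM (717 to 879), 980 (831 to 1148) and 731 (587 to 900) in Schwann-like cells. It was at 23.1 CPM (16.1 to 32.2), 49.8 (31.6 to 74.7) and 22.9 (10.98 to 42.1) in kind B muscle, far below the Schwann-like cells of the same library. Kind A held 1 UMI over the 3 libraries and kind C 1. The pooled ratio of kind B to kind A was 66.6 (11.6 to 2668, a counting interval) and rests on that 1 UMI of kind A. Free RNA in near-empty droplets held Kcna2 at 18.0 CPM (10.7 to 28.4), an interval that overlaps kind B of the mixed library, whereas kind A of that library held 0 UMIs in 1319359.

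In the Schwann-like class both genes were higher in clusters marked by Scn7a and Cadm2 than in those marked by the myelin genes Prx and Ncmap, a division made after the data were seen and given without a test. Kcna2 was at 2296, 2683 and 1648 CPM in the former and at 534, 410 and 292 CPM in the latter. The pooled ratio was 4.67 (3.98 to 5.49). Kcna1 was at 2824, 2606 and 3499 CPM in the Scn7a and Cadm2 clusters and at 1469, 1683 and 1543 CPM in the Prx and Ncmap clusters, a pooled ratio of 1.94 (1.73 to 2.17). The groups did not overlap for either gene, and the former clusters held 50, 17 and 13 cells.

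Kcnab1, the Kv beta1 subunit that binds Kv1 channels from the cytoplasm, was read in all muscle kinds with kind B highest. Kcnab1 (ENSMUSG00000027827, chr3:65109384-65378223, plus strand) was at 240 CPM (216 to 266), 336 (285 to 393) and 181 (143 to 226) in kind B. In kind A it was at 37.5 (24.7 to 54.6), 18.6 (6.83 to 40.5) and 24.3 (16.6 to 34.2), and in kind C at 128 (105 to 155). The kinds did not overlap, and kind B exceeded kind A with a log2 difference of 3.16 (SE 0.23; edgeR, adjusted p = 5.33e-09), and passed under every alternative run. Kind A of the mixed library lay at the level of the near-empty droplets, 24.98 CPM (16.2 to 36.9). Pericyte-like cells held 4 Kcnab1 UMIs, and the 5 tested classes other than muscle held 10 in all, so that muscle-like cells stood higher than each of them (edgeR adjusted p of 2.17e-06 or less). Against pericyte-like cells the call was lost when the 9 genes entered the clustering (adjusted p = 0.398).

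Kcng1 was the mirror of Kcna5 among the muscle kinds. Kcng1 (ENSMUSG00000074575, chr2:168260117-168281736, minus strand) was at 197 CPM (166 to 233), 254 (202 to 316) and 131 (112 to 152) in kind A, at 9.68 (4.18 to 19.1) in kind C and at 0 UMIs in kind B of every library. Pooled kind A was at least 135-fold above kind B, against a floor of 3 counts over the kind. A Kcng1 UMI was seen in 54.3%, 57.9% and 52.3% of kind A cells and in 0 of 288, 54 and 61 kind B cells, at the depths given above for the kinds. Outside muscle it was at 2 UMIs in pericyte-like cells, at the 10 UMIs in lymphatic endothelial-like cells of PLV replicate 1, and at 0 in fibroblast-like, blood endothelial-like and Schwann-like cells. With DESeq2 the Kcng1 calls against the 5 other classes were lost (adjusted p of 0.0847 to 0.575).

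**Figure D3:**
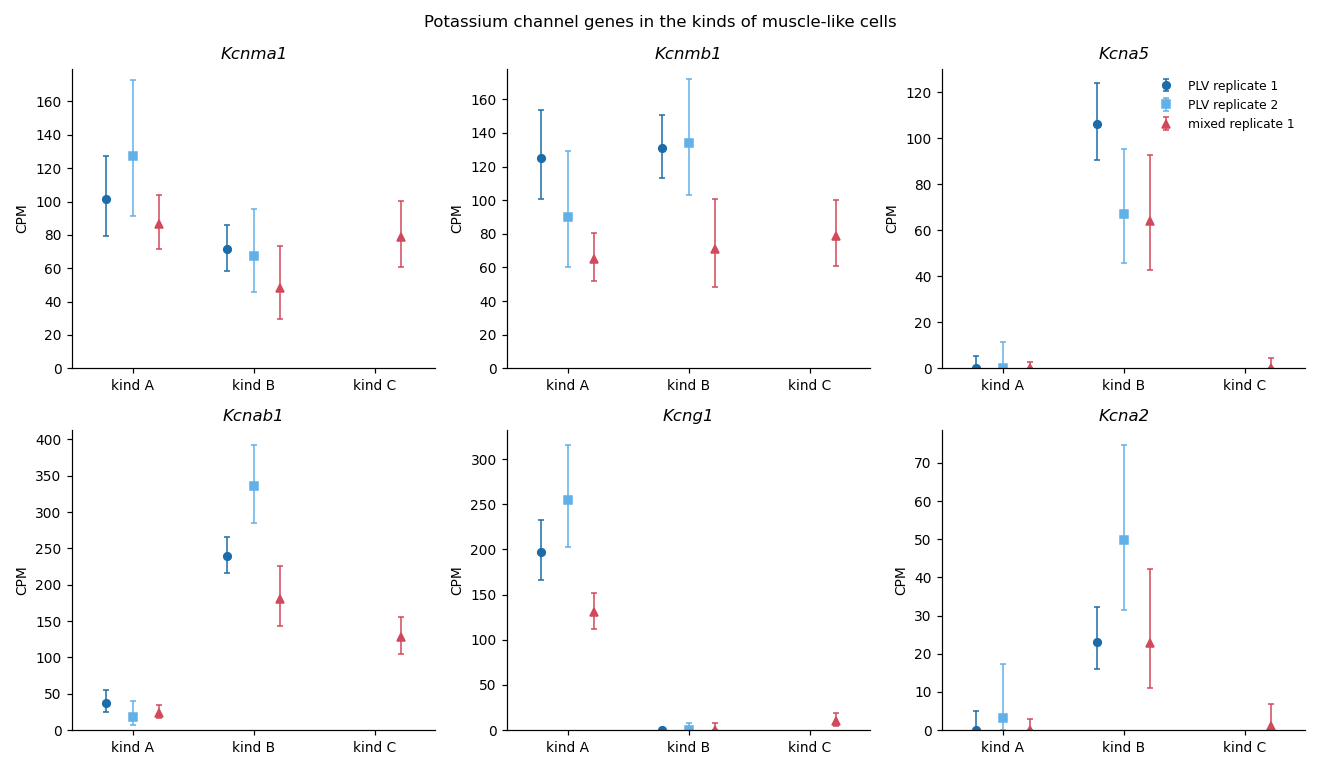
CPM of 6 potassium channel genes in muscle kinds A, B and C (vertical axes, linear from 0), a point for each library with its 95% exact Poisson interval. Kcna5 and Kcna2 are near 0 outside kind B, Kcng1 is at 0 in kind B, and the 2 BK genes are present in all kinds.

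Kcnq5 and Kcnd3 were sparse. Kcnq5 (ENSMUSG00000028033, chr1:21398403-21961942, minus strand), a Kv7 subunit that opens near the resting potential, had 9, 0 and 1 UMIs in muscle-like cells, 2 in the pericyte-like cells of each library and 7 in blood endothelial-like cells. Its pericyte-like level was 11.9 ± 4.28 CPM (SD, n = 3 libraries) and rests on those 6 UMIs. Kcnd3 (ENSMUSG00000040896, chr3:105452330-105674002, plus strand), a pore subunit of transient Kv4 currents, had 4, 3 and 9 UMIs in kind A, 9 in kind C and 0 in kind B, where the exact upper limits were 2.44, 7.99 and 8.45 CPM. Pooled kind A was thus at least 5.45-fold above kind B for Kcnd3 against a floor of 3 counts, on 16 UMIs. The filter on low counts left both genes out of the tests of classes and kinds.

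Set out by class, each gene took a different order of levels. For Kcnma1 the order was kind A, kind C and kind B, with every other class at 0.583 CPM or less. Kcnmb1 ran from kind B to kind A to kind C, neighbours whose values overlapped. Kcna5 ran from kind B to blood endothelial-like cells, which overlapped, and then fell to 1.33 CPM in pericyte-like cells. For Kcnab1 the order was kind B, kind C, kind A and pericyte-like cells, with no overlap between neighbours.

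The filter on low counts passed 7 of the 9 genes in the class test, Kcnq5 and Kcnd3 being left out. A gene that passes only through the class where it is high has to differ, so the counts that follow are a description. Against blood endothelial-like cells 5 of the 7 were higher in muscle-like cells and 0 lower, where 20.5% and 20.0% of the 10485 genes tested were. Against fibroblast-like cells 6 were higher and 0 lower (17.4% and 21.7% of genes). Against lymphatic endothelial-like cells 6 were higher and 0 lower (21.7% and 20.6%). Against pericyte-like cells 5 were higher and 0 lower (7.78% and 5.45%), and against Schwann-like cells 5 were higher and 2 lower (19.0% and 15.3%). The 2 that were lower were Kcna1 and Kcna2. In the other 4 contrasts none of the 7 was lower with edgeR at an unadjusted p under 0.05, and none was lower with DESeq2. Kcna2 did not pass against pericyte-like cells (edgeR adjusted p = 0.0743), though it did in 4 of 10 alternatives: with DESeq2 (0.0311), with no filter (0.00123), without the mixed library (0.018) and with at least 1000 UMIs per cell (0.0304). Its call against fibroblast-like cells (edgeR adjusted p = 0.0242) was lost without PLV replicate 1 (0.319), without PLV replicate 2 (0.214), at resolution 0.5 (0.155) and with the 9 genes in the clustering (0.154). Kcna5 passed against pericyte-like cells (0.00198) but lost the call without PLV replicate 1 (0.146), with at least 1000 UMIs per cell (0.0501) and at a finer clustering (0.59), and its difference turned to -0.16 when the 9 genes were let into the clustering, where the kind B cells of the mixed library joined the pericyte-like class.

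Between kinds, 6 of the 9 genes passed the filter, among them Kcna2, Kcna5 and Kcng1 only through the kind where they were high, so nothing is read from their counts. Kcna2, Kcna5 and Kcnab1 were higher in kind B, 3 of 6, where 15.3% of the 7096 genes tested were. Kcng1 and Kcnma1 were lower in kind B, 2 of 6, where 14.7% of genes were. With no filter the median log2 difference over the 9 genes was 0.41. An added term for kind and kind of library could be estimated for 4 of the 6 genes, Kcna5 and Kcng1 having a kind with 0 UMIs. Kcna2, Kcnab1, Kcnma1 and Kcnmb1 did not pass (edgeR adjusted p from 0.892 to 0.962, none with an unadjusted p under 0.05), where 1.31% of all genes did, in a fit with 1 residual degree of freedom per gene.

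With edgeR 3 of the genes were lower in the mixed than in the PLV libraries when muscle-like cells were taken as a whole, and none of those tested passed when a single kind was compared. The mixed arm is 1 library against 2, with 1 residual degree of freedom per gene, so the SE and p of this contrast take their spread almost wholly from other genes and assume that the mixed library varies like the PLV libraries. The genes passing it fell from 1674 to 194 with DESeq2. In all muscle-like cells Kcna5 was at 72.1 and 39.5 CPM in the PLV libraries and 10.8 in the mixed library, without overlap. The difference of mixed minus PLV was -2.23 (SE 0.33, edgeR adjusted p = 1.02e-06). Kcna2 was at 15.7 and 30.6 against 4.26 CPM, a difference of -2.05 (SE 0.51, edgeR adjusted p = 0.00312). Kcnab1 was at 175 and 205 against 84.0 CPM, a difference of -0.95 (SE 0.25, edgeR adjusted p = 0.00524). These 3 of the 7 genes tested were lower and 0 higher, where 7.39% and 8.05% of the 10843 genes tested were. Kcnd3 alone was higher with an unadjusted p under 0.05, and DESeq2 gave it no adjusted p. No other gene was higher with DESeq2, which lost the calls of Kcna2 (adjusted p = 0.324) and Kcnab1 (0.24). Kcnma1 differed by 0.08 (-0.40 to 0.56), Kcng1 by 0.03 (-0.48 to 0.54), Kcnmb1 by -0.59 (-1.07 to -0.11, edgeR adjusted p = 0.0892) and Kcnd3 by 1.75 (0.06 to 3.43, edgeR adjusted p = 0.159).

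The makeup of the muscle-like class moved with these results. Kind B was 288 of 428 and 54 of 111 muscle-like cells in the PLV libraries and 61 of 334 in the mixed library, where kind C also appeared. Within kind B the difference of mixed minus PLV was -0.35 for Kcna5 (-1.02 to 0.33), -0.28 for Kcna2 (-1.35 to 0.79) and -0.48 for Kcnab1 (-1.03 to 0.06). None of the 5 genes tested there passed with edgeR, where 5.45% of the 6608 genes tested did, and Kcnmb1 (-0.73, -1.38 to -0.08) alone had an unadjusted p under 0.05. None of the 4 genes tested within kind A passed, where 5.64% of the 8726 genes tested did, and none had an unadjusted p under 0.05. With DESeq2 none passed within kind B, and within kind A it gave no adjusted p for the 4 genes. The intervals do not show that the kinds were alike in both sorts of library.

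**Figure D4:**
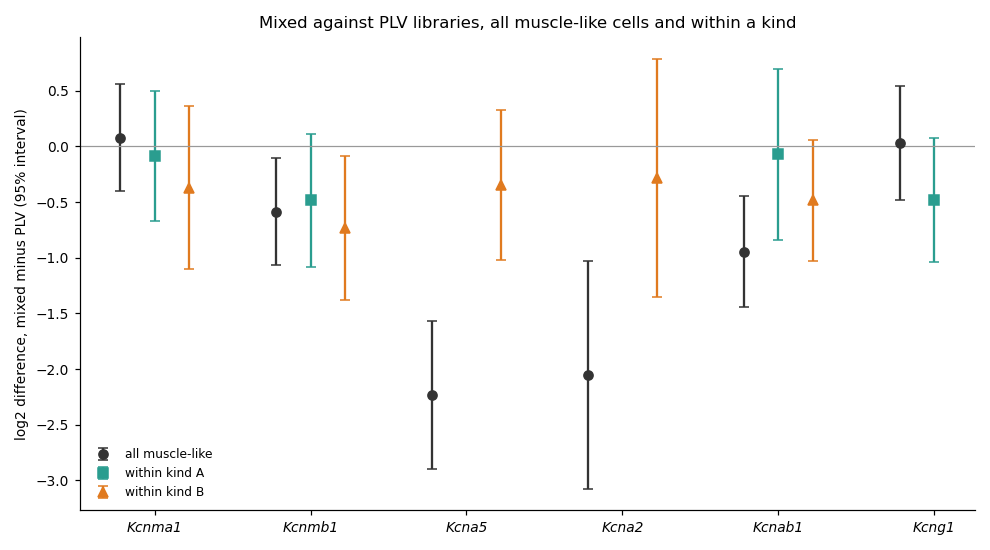
Difference of mixed minus PLV libraries (vertical axis, log2, edgeR) with 95% intervals for 6 potassium channel genes, in all muscle-like cells and within kinds A and B; a gene at 0 UMIs or not tested in a kind has no point there. Kcna5 and Kcna2 lie at -2.23 and -2.05 over all muscle-like cells and at -0.35 and -0.28 within kind B.

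Subunits that can share a channel were also counted in the same cells. Kcnma1 and Kcnmb1 UMIs occurred together in 58 of 428, 26 of 111 and 60 of 334 muscle-like cells, where the separate shares multiplied would give 53.6, 20.8 and 47.5. Kcna5 and Kcnab1 occurred together in 79, 19 and 11 kind B cells, where the shares within kind B would give 70.9, 18.3 and 11.5. Kcna2 and Kcna5 occurred together in 11, 6 and 3 kind B cells against 10.9, 4.48 and 2.30. Within kind B the last 2 pairs were thus counted together about as often as the separate shares give. Cells of 1 library are not replicates and deep cells show more of every gene, so these counts carry no test.

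Over 18 sums (6 classes in 3 libraries) and 8129 genes, the patterns most like each gene's were ranked by Pearson correlation of log2(CPM + 10), with no p since sums of a library share its mice and depth. For Kcnma1 they were Map3k7cl (0.997), Kcnmb1 (0.995) and Kcng1 (0.985). Kcnmb1 had Kcnma1, Asb2 (0.992) and Pln (0.99), and Kcng1 had Kcnma1, Slc22a3 (0.982) and Kcnmb1 (0.979). Kcna5 had Timp4 (0.966) and Rasd1 (0.953), and Kcnab1 had Ldb3 (0.98), Stum (0.979) and Asb2 (0.972). The sums hold muscle-like cells as 1 class, so Kcnma1 and Kcng1 rank together although their kinds differ.

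A wider list of 57 further genes of these channel families in the files put the 9 in context. Of these, 20 had 0 UMIs in the kept cells of every library, and 8 passed the filter in a planned contrast.

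Between classes the filter passed 7 of the list's genes, and with no filter 34 were tested. In muscle-like against blood endothelial-like cells 3 of the 7 were higher and 0 lower with edgeR (20.5% and 20.0% of all genes), and with no filter 4 of 34 were higher and 4 lower (13.1% and 11.8%). Against fibroblast-like cells 4 of the 7 were higher and 0 lower (17.4% and 21.7%), and 4 and 4 of 34 with no filter (10.8% and 13.3%). Against lymphatic endothelial-like cells these counts were 5 and 0 of 7 (21.7% and 20.6%) and 6 and 1 of 34 (13.8% and 12.2%). Against pericyte-like cells they were 2 and 0 of 7 (7.78% and 5.45%) and 2 and 0 of 34 (5.50% and 3.37%). Against Schwann-like cells they were 4 and 2 of 7 (19.0% and 15.3%) and 4 and 4 of 34 (12.2% and 8.24%). With no filter the shares of the list thus lay nearer those of all genes. Kcnh2, the ERG channel pore, was at 73.9, 57.4 and 28.3 CPM in muscle-like cells and at 0 UMIs in pericyte-like, blood endothelial-like and Schwann-like cells. Kcne4, a single-span accessory subunit, was at 200, 131 and 82.1 CPM in muscle-like cells. Kcne4 was also at 123, 156 and 83.8 CPM in pericyte-like cells and did not pass against them (edgeR adjusted p = 0.521). The Kv4 partner Kcnip3 passed against lymphatic endothelial-like cells (edgeR adjusted p = 0.000526), where it had 0 UMIs. The 2 that were lower than in Schwann-like cells were Kcna6, at 214, 250 and 263 CPM there and 0 UMIs in muscle, and Kcnmb4, the BK beta4 subunit of nervous tissue, at 50.7, 64.0 and 49.3 CPM there. Kcnn3, an SK channel pore, was left out by the filter. It was at 46.8 CPM in fibroblast-like cells of PLV replicate 1 and at 8.86 and 0.473 in the other libraries.

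Set against the kind of library, Kcnh2 and Kcne4 were among the list genes lower in the mixed library with edgeR, and DESeq2 kept neither gene's calls. These contrasts set the same single mixed library against 2, so their p-values have almost no replication behind them. Of 6 list genes tested in all muscle-like cells 4 were lower and 0 higher (7.39% and 8.05% of all genes), and 1 was lower with DESeq2. Of 4 tested within each kind, 2 were lower and 0 higher in kind A and in kind B, where 5.64% and 5.45% of all genes passed in either direction, and 0 passed with DESeq2, which gave no adjusted p to the 4 in kind A. In all muscle-like cells the log2 difference of mixed minus PLV was -1.03 for Kcnh2 (edgeR adjusted p = 0.0051), lost with DESeq2 (0.561) and at resolution 0.5 (0.147). For Kcne4 it was -0.82 (edgeR adjusted p = 0.0185), lost with DESeq2 (0.524), at resolution 0.5 (0.222), with at least 1000 UMIs per cell (0.0613) and with the 9 genes in the clustering (0.0694). Within kind A it was -1.16 for Kcnh2 (edgeR adjusted p = 0.0336), lost with no filter (0.0738) and given no adjusted p by DESeq2, and 0.05 for Kcne4 (-0.51 to 0.61, 0.955). Within kind B it was -1.74 for Kcnh2 (edgeR adjusted p = 0.00877), lost with DESeq2 (0.9998), at resolution 2 (0.192) and with at least 1000 UMIs (0.45). For Kcne4 in kind B it was -2.28 (edgeR adjusted p = 2.44e-07), lost with DESeq2 (0.148), where the genes passing within kind B fell from 360 to 18.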

How the data were processed

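Single-cell 3′ libraries were aligned and counted by the authors with Cell Ranger, version 6.1.2 for the PLV and 4 for the mixed library per the file headers, and GRCm38 is named in the submitters' processing notes. The deposited values are raw UMI counts per gene and cell, and whether intronic reads were counted is not given in the sources used here. The mixed file held 896360 barcodes, the PLV files 2649 and 730. Cells with at least 500 UMIs, 300 genes, at most 15% mitochondrial and 20% haemoglobin UMIs were kept, and 10, 3 and 3 predicted doublets (scrublet in scanpy 1.11.5) were left out. Each library was clustered (2000 variable genes, 50 components, 15 neighbours, Leiden resolution 1, leidenalg 0.10.2) without the 9 genes and the wider list, and a cluster was named where at least 3 markers were 2-fold up after adding 20 CPM. A cluster stayed unnamed where its 10 leading genes held more markers of another class. The tests took the 6 classes named in all 3 libraries.

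Counts summed per library and class were tested with edgeR 4.0.16 (TMM, filterByExpr, quasi-likelihood, R 4.3.3), Benjamini-Hochberg adjusted over all genes tested, threshold 0.05, with the library as a block since its classes come from the same mice. Mixed minus PLV had no block. Replicates are separate pools of mice. The alternatives were DESeq2 1.42.0, no filter, no block, each library left out, at least 1000 UMIs, at most 10% mitochondrial UMIs, doublets kept, resolutions 0.5 and 2, and, chosen after seeing the data, the 9 genes in the clustering. Tested on simulated data with 200 genes changed 4-fold, the fit recovered 77.5% of them for muscle-like against pericyte-like cells (10485 genes), 84% between kinds (7096) and 77% for mixed against PLV (10843). False calls made up 5.49%, 4% and 6.67% of the calls in the same order. The simulated counts had 1 spread for all genes and no other difference between groups or libraries beyond depth. The changed genes were drawn from those with a mean of at least 10 counts. These rates therefore need not hold for sparse genes or for the real contrasts, where far more genes differ. The text names the 9 genes, wider-list genes that passed a test or reached 50 UMIs in a library, and the 3 nearest patterns of each gene with at least 100 muscle UMIs. Some genes that this rule takes are not reported here. The genes, lists and kinds were chosen with earlier results of these data known. Gene positions are from the GENCODE M21 annotation of GRCm38.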

Additional observations from a re-analysis of the deposited data

Results flagged for a closer look

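Kcne4, an accessory subunit from the wider list, differed between the kinds of library in the size of its kind difference. Kcne4 was at 226, 134 and 34.4 CPM in kind B and at 145, 127 and 117 CPM in kind A, in the order first PLV, second PLV and mixed library. The term for kind B minus kind A, mixed minus PLV, was a log2 difference of -2.29 (SE 0.43; edgeR, adjusted p = 3.45e-05). The fit has 1 residual degree of freedom per gene and takes its spread from all genes together, so the SE and p have almost no replication behind them. The term was fitted with edgeR alone, and within kind B the lower level in the mixed library was lost with DESeq2 (adjusted p = 0.148). It rests on the single mixed library, and vessel, digestion, run and mice cannot be told apart there.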

How the results depend on the processing

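Of 591 results for single genes under an alternative, 552 kept their side of the threshold, 32 lost the call, 6 gained it and 1 reversed. A change of sign was counted as a reversal only where at least 1 of the 2 fits passed, so the 552 include changes of sign between fits that did not pass. Kcna1 against blood endothelial-like cells, for example, was at -1.187 and ran from -3.045 to 1.624. With DESeq2, 3 rather than 5 of the 7 genes tested were higher in muscle-like than in Schwann-like cells, where 1701 of 10485 genes were (1996 with edgeR). The same counts held against blood endothelial-like cells, where 1953 of 10485 genes were higher (2149 with edgeR). In mixed minus PLV over all muscle-like cells, DESeq2 ended the calls of Kcna2 and Kcnab1. Kcna1 became 1 gene of 7 lower than in fibroblast-like cells with at least 1000 UMIs per cell, where 2014 of 10436 genes were lower. The count ranged from 0 to 1 when a library was left out. It was 1 of 8 without PLV replicate 2, where 1794 of 11731 genes were lower. With the 9 genes in the clustering, 2 rather than 5 of the 7 tested were higher than in pericyte-like cells, and Kcna5 reversed to -0.16. Over all genes, 243 of 10502 were higher there, against 816 of 10485 in the reported fit. Of the 6 genes tested between kinds, the count lower in kind B fell from 2 to 1 in several alternatives, Kcnma1 being the call lost. These were DESeq2, no replicate block, at most 10% mitochondrial UMIs, resolutions 0.5 and 2, the 9 genes in the clustering, and each library left out. Over all genes, 598 of 7096 (DESeq2) to 1167 of 7479 (9 genes in the clustering) were lower in these fits. With no filter Kcnma1 also lost the call (edgeR adjusted p = 0.0851), while 2 of the 9 genes tested were lower (1280 of 15481 genes). Between kinds, the 9 genes in the clustering gave the same fit as leaving out the mixed library, and within kind A the same fit as the reported one. The replicate block changed no other call of the 9 genes.

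Kcnq5 in pericyte-like cells was at 4.42 rather than 11.9 CPM at resolution 0.5. The lower value is a mean without PLV replicate 1, which had no pericyte-like cluster there. The 11.9 CPM is a mean over 3 libraries and rests on 6 UMIs, so the 2 values are not like for like. Over 8 alternatives the fitted log2 difference of mixed minus PLV in all muscle-like cells ran from -9.60 to -2.09 for Kcna5. For Kcna2 it ran from -5.09 to -1.99, so the size of both differences depends on the processing. The log2 ratio of mixed to mean PLV CPM also moved when a PLV library was left out. It ranged from -0.577 to 0.14 for Kcng1 in muscle-like cells and from -0.63 to 0.382 for Kcnab1 in kind A, around values of -0.263 and -0.211. For Kcna2 in kind B it was -0.671, and -1.12 without PLV replicate 1 and -0.0144 without PLV replicate 2. Over all genes, the 2132 passing between kinds became 1233 with DESeq2, 1403 with no block and 1176 without PLV replicate 1. The 1387 passing against pericyte-like cells became 718 and 708 without PLV replicate 1 and 2, and 616 with the 9 genes in the clustering. The 3601 against Schwann-like cells became 1997 without PLV replicate 1. The 1674 of mixed minus PLV became 194 with DESeq2 and 709 at resolution 0.5, the 492 within kind A 41 and the 360 within kind B 18 with DESeq2. Within kinds, resolution 2 gave 291 and 210, and at least 1000 UMIs gave 225 in kind B. The cause was not tested. At resolution 0.5 and at 10% mitochondrial UMIs no cluster of PLV replicate 1 was pericyte-like, so that contrast gave no value. The filter on low counts left Kcnq5 and Kcnd3 out of the reported tests of classes and kinds, and with no filter all 9 genes were tested. Then 6 rather than 5 were higher than in blood endothelial-like cells (13.1% of 19324 genes). Against pericyte-like cells 6 rather than 5 were also higher (5.50% of genes).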

Other observations

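The BK genes were counted in different proportion in the muscle kinds. In kind A, Kcnmb1 per Kcnma1 UMI was 1.23 (0.895 to 1.70) in PLV replicate 1, 0.707 (0.424 to 1.17) in PLV replicate 2 and 0.754 (0.563 to 1.01) in the mixed library. In kind B it was 1.83 (1.44 to 2.34), 2.00 (1.28 to 3.19) and 1.48 (0.822 to 2.70), above kind A in each library and without overlap of the values. Kind C stood at 1.00 (0.698 to 1.43). The intervals are exact 95% counting intervals, and those of kinds A and B overlapped in PLV replicate 1 and in the mixed library. The difference was not tested.

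Some clusters outside the 6 tested classes also held these genes. A keratinocyte-like cluster of PLV replicate 1 with Acta2 at 3698 CPM held 2 Kcnma1, 10 Kcnmb1, 9 Kcna5 and 16 Kcnab1 UMIs in 98 cells. An unnamed cluster of that library led by Sema3g, Cytl1 and Gja5, with Acta2 at 1225 CPM, held 4 Kcnmb1, 3 Kcna5 and 10 Kcnab1 UMIs in 76 cells. A T or NK-like cluster of the mixed library with Myh11 at 7816 CPM held 1 Kcnma1, 2 Kcnmb1 and 8 Kcng1 UMIs in 38 cells. The part of muscle RNA in these counts was not tested. A T or NK-like cluster of PLV replicate 1, with Acta2 at 6.50 CPM and Myh11 at 0, held 8 Kcna2 UMIs in 55 cells. Macrophage-like cells, found in 2 libraries (86 and 31 cells), held 0 UMIs of all 9 genes. A cluster of PLV replicate 2 led by Cd74, H2-Aa and H2-Ab1 held 3 Kcnq5 UMIs in 37 cells (12.96 CPM). The B-like cluster of PLV replicate 1 held 3 Kcnq5 UMIs in 48 cells (31.2 CPM).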
